A study of Mus musculus with 27 samples.

Results

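Expression of 10 genes of the MHC class I antigen presentation pathway was followed through blood and smooth muscle differentiation of mouse embryonic stem cells (ESCs), with and without inhibition of AP-1. The members were B2m, Tap1, Tap2, Tapbp, Psmb8, Psmb9, Psmb10, H2-K1, H2-D1 and Nlrc5. Their probes were found through the RefSeq accession that the array files give for each spot, which matched all 10 members with 12 probes, H2-K1 and Nlrc5 having 2 probes each. These are 10 of the 37208 genes or transcripts on the array.

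The data were 27 one-colour arrays (Agilent, mouse), which fell into 13 groups. All cells came from a single ESC line, A17 2lox, in which a dominant-negative FOS peptide (dnFOS) sits at the Hprt locus under the control of doxycycline (DOX), so that the untreated controls carry the cassette too. The peptide binds JUN proteins and keeps AP-1 dimers off the DNA. Untreated FLK1+ cells, which contain the hemangioblast, were the starting point. FLK1+ cells in blast culture, without DOX or with 1 µg/ml DOX, were taken as complete cultures after 5 h (FLK1+ 5h) or after 1 day (d1 BC). After 2 days, cultures without DOX or with 1 µg/ml DOX were sorted into smooth muscle cells (SM), early hemogenic endothelium (HE1, KIT+ TIE2+ CD41-), late hemogenic endothelium (HE2, KIT+ TIE2+ CD41+) and hematopoietic progenitors (HP, KIT+ TIE2- CD41+). All groups were in duplicate, apart from untreated SM with 3 arrays. Cells lacking the cassette were not treated with DOX, and thus effects of dnFOS and of the drug itself cannot be told apart. Nothing in the labels says that replicates came from separate cultures, so the p-values measure only the spread between these arrays, which may be technical. In these pooled populations, fewer cells of a type and less RNA per cell cannot be told apart.

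MHC class I molecules show short peptides from inside the cell to cytotoxic T cells. Peptides are cut by the proteasome, in which the inducible subunits encoded by Psmb8, Psmb9 and Psmb10 can replace the constitutive catalytic ones, and are carried into the endoplasmic reticulum by the TAP transporter, a dimer of the Tap1 and Tap2 products. There tapasin, encoded by Tapbp, bridges the transporter to a heavy chain, such as those of H2-K1 and H2-D1, which pairs with beta-2 microglobulin, the product of B2m. Nlrc5 encodes the transactivator of class I promoters, and the whole set is known to be raised by interferons and to be low in pluripotent and early embryonic cells.

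Of the members, 7 lie on chromosome 17, where Psmb9, Tap1, Psmb8 and Tap2 are neighbours, 2 lie on chromosome 8 (Psmb10 and Nlrc5) and B2m lies on chromosome 2. Promoter windows of RefSeq on GRCm38.p6, which run from 250 bases before to 50 bases after a gene's start, were held for 8 members. The stretch between the divergent starts of Psmb9 and Tap1 is shown because these 2 members had similar patterns over the arrays, and those upstream of Psmb8, B2m and H2-D1 because they hold the matches described here. Capitals mark, in order along each strand, the only CCAAT box between Psmb9 and Tap1, the STAT motif of Psmb8, the interferon response core, NF-kB motif and reversed CCAAT box of B2m, and the NF-kB motif and both CCAAT boxes (the first reversed) of H2-D1.
Psmb9 to Tap1, chr17:34187331-34187555, plus strand: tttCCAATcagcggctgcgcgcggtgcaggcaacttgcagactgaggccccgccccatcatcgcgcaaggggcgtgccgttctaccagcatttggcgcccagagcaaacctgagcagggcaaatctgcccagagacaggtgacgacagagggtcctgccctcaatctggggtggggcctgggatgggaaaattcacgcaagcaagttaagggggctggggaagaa
Psmb8, chr17:34197945-34198194, plus strand: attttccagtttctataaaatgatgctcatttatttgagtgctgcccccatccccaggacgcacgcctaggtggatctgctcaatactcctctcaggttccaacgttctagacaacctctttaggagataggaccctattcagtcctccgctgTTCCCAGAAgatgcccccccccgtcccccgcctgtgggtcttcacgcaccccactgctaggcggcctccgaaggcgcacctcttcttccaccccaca
B2m, chr2:122147437-122147686, plus strand: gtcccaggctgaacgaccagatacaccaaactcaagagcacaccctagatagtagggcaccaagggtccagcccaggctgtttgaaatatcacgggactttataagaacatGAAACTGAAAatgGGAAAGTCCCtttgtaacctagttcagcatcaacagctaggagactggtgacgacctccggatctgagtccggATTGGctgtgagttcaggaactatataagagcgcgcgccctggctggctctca
H2-D1, chr17:35262844-35263093, plus strand: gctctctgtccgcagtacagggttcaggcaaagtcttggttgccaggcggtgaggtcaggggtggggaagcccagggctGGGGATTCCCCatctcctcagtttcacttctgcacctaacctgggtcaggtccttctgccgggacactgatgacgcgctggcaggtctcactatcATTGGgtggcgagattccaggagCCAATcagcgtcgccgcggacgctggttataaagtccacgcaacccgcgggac
The 2 heavy chain genes carried the same NF-kB motif in almost the same surroundings, with 29 of 30 bases identical between them, which are shown with the motif in capitals.
H2-K1, chr17:34000439-34000468, minus strand: gcccagggctGGGGATTCCCCatctccaca
H2-D1, chr17:35262913-35262942, plus strand: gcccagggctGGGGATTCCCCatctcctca

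Motifs were searched on both strands of the 300-base windows. The AP-1 motif TGANTCA was found in 0 of the 8 members, against 8.97% of the 27025 genes with a window, and TGACGT in 0 of 8 against 8.37%. The interferon response core, GAAA repeated after any 2 bases, was found in B2m, 139 bases before its start, and in 3.99% of all genes. TTCNNNGAA, the STAT motif, was found in Psmb8, 97 bases before the start, and in 9.55% of all genes. CCAAT was held by 6 members (B2m, Tap1, Tapbp, Psmb9, H2-K1 and H2-D1) and by 41.1% of all genes. The NF-kB motif was held by 3 members (B2m, H2-K1 and H2-D1) and by 5.14% of all genes. In H2-K1 and H2-D1 the NF-kB motif, and in Psmb8 the STAT motif, matched on both strands over the same bases. Matches of different motifs did not overlap in the stretches shown. These matches describe letters within the windows and were not tested for binding. Only exact matches to these letters were counted, and sequences that differ from them by a base were not searched.

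**Figure D1:**
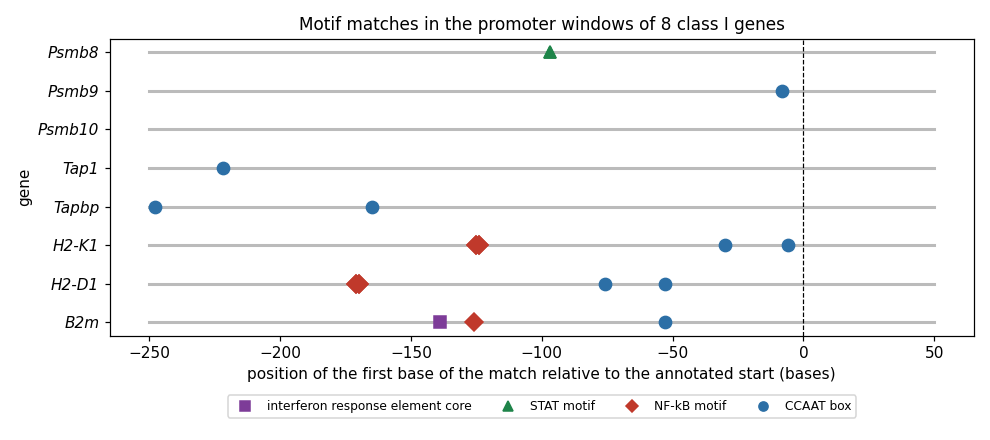
Positions of the matches to 6 sequence motifs in the promoter windows of the 8 members with a RefSeq entry, in bases relative to each gene's start (horizontal axis) with a row for each window. Of these 8, only B2m has an exact match to the interferon response core, and none has an exact TGANTCA or TGACGT match. Inexact forms were not searched.

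The level of a gene is given as log2 of the processed signal minus log2 of the 75th percentile of its array, so that 0 stands at that percentile and a step of 1 is a doubling. The 75th percentile of signal ran from 78.8 in the first HE2 array to 732, and 48.0% to 89.7% of probes lay well above background, the highest share being that of the second untreated SM array. Both untreated HE1 arrays were dim as well, with 75th percentiles of 140 and 145. Hprt, at whose locus the cassette sits, was higher with DOX on every array of 6 of 6 populations, by 1.45 to 3.63 on the log2 scale. As marker checks, the mean level of Acta2 was 5.68 in HP, 4.13 in HE2, 7.20 in HE1 and 9.38 in SM. In the same order, that of Cdh5 was 3.31, 4.29, 5.48 and 0.74 and that of Runx1 was 4.37, 3.94, -0.22 and 1.03. Not all SM arrays were alike in other markers, as described with the SM values: the erythroid sums of untreated SM replicates 1 and 3 (471 and 329) were above those of HP (144 and 244). Among members, B2m, H2-K1, H2-D1, Psmb10, Tap2 and Tapbp were above background on all 27 arrays, Psmb9 on all 26 with a value (its spot on the third untreated SM array was removed as an outlier), Psmb8 on 26, and Tap1 and Nlrc5 on 18 each.

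Of the 7 untreated groups, FLK1+ cells had the highest mean for all 3 inducible proteasome subunits. Psmb8 was high at the start, at 1.78 and 1.23 on the FLK1+ arrays, and stood at 1.31 and 0.92 after 5 h and at -0.28 and -1.02 in d1 BC. It was at -2.81 and -2.90 in HE1, -2.35 and -1.89 in HE2 and -0.38 and -0.35 in HP, so that both HP arrays lay above all HE1 and HE2 arrays. The 3 untreated SM arrays stood at 0.17, -3.73 and 0.34, the second far below the others.

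Psmb9 stood at 0.11 and -0.46 in FLK1+ cells, -0.85 and -1.42 at 5 h and -2.34 and -3.77 in d1 BC. In the endothelial line it was at -2.78 and -2.80 in HE1, at -1.32 and -1.13 in HE2 and at -0.16 and -0.35 in HP, 3 groups without overlap. The HE1 signals of Psmb9 (20.4 and 20.9) and Psmb8 (20.1 and 19.4) were low. The lowest signals above background on these arrays were 10.6 and 8.25. Psmb10, the third subunit, had its lowest untreated mean in HE1, as did Psmb8, at 3.62 and 4.42, and stood at 4.35 and 5.80 in HE2, 5.45 and 7.06 in HP and 6.62 and 6.12 in FLK1+ cells. Its replicates differed much (pooled SD 0.965), and in all 12 neighbouring pairs of groups, ordered by level, the arrays overlapped.

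Of the loading complex, Tap1 was above background in FLK1+ cells (-1.20 and -1.37), at 5 h (-1.70 and -1.70) and in d1 BC (-3.28 and -3.51). In HE1 neither array was well above background (-4.83 and -5.50), in HE2 one of the pair was (-4.59 and -3.39), and in HP both were (-1.67 and -2.28). Tap1 was therefore measured at both ends of the hematopoietic series and only bounded in between. Tap2, the partner of Tap1 in the transporter, stood at 1.67 and 1.32 in FLK1+ cells, -0.28 and -2.43 in d1 BC, -0.82 and 0.10 in HE1, -1.45 and -0.30 in HE2 and 1.29 and 1.53 in HP. Tapbp had its highest levels in the early cultures, at 3.08 and 2.75 in FLK1+ cells, 3.42 and 2.78 at 5 h and 2.60 and 2.21 in d1 BC. It stood at 0.01 and 0.85 in HE1, 0.81 and 1.15 in HE2 and 1.37 and 1.50 in HP, all below every array of the 3 early untreated groups.

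The group means of B2m spanned 1.89 on the log2 scale over the 13 groups and those of H2-D1 2.57. For H2-K1 the span was 1.78 by the kept probe and 2.55 by the second one. The kept probe was highest in HP, at 3.86 and 4.08, and stood at 3.23 and 2.86 in FLK1+ cells and at 3.13 and 2.94 in HE1. The second probe, also above background on all arrays, had its highest mean in FLK1+ cells (1.93), with 1.63 in HP and 0.54 in HE1, so that the probes of H2-K1 differ in the group they place first. H2-D1 was at 2.66 and 2.18 in FLK1+ cells, 1.87 and 1.80 in HE1, 1.10 and 1.57 in HE2 and 2.09 and 1.80 in HP. B2m was at 3.72 and 3.74 in FLK1+ cells, 4.34 and 4.54 in d1 BC, 4.28 and 5.01 in HE1, 2.95 and 4.92 in HE2 and 4.49 and 5.79 in HP, with all HP arrays above the FLK1+ arrays but overlapping those of HE1 and HE2.

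The kept probe of Nlrc5 was near background in the early untreated groups, with 1 of 2 FLK1+ arrays (-4.38 and -4.86), 0 of 2 arrays at 5 h (-5.48 and -5.64) and 1 of 2 d1 BC arrays (-4.39 and -4.59) above it. It stood at -3.04 and -3.99 in HE1 and at -2.50 and -3.09 in HP, above background on all 4 arrays. The second probe of Nlrc5 ran otherwise, being above background on both arrays at 5 h (-3.33 and -4.88) and on both in HP (-3.51 and -3.19) but on neither in HE1 (-5.22 and -5.04). No course can be given for the gene from probes that disagree.

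Ordered by level, FLK1+ cells had the highest group mean of all 13 groups for Tap1, Tap2, Psmb8, Psmb9 and H2-D1, and HP cells for B2m and for the kept probe of H2-K1. For Tapbp the arrays overlapped in 8 of 12 neighbouring pairs of that order, and for the other 9 members in 10 to 12 pairs. Neighbours in an order by mean are the closest groups, so this overlap does not show whether groups differ.

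**Figure D2:**
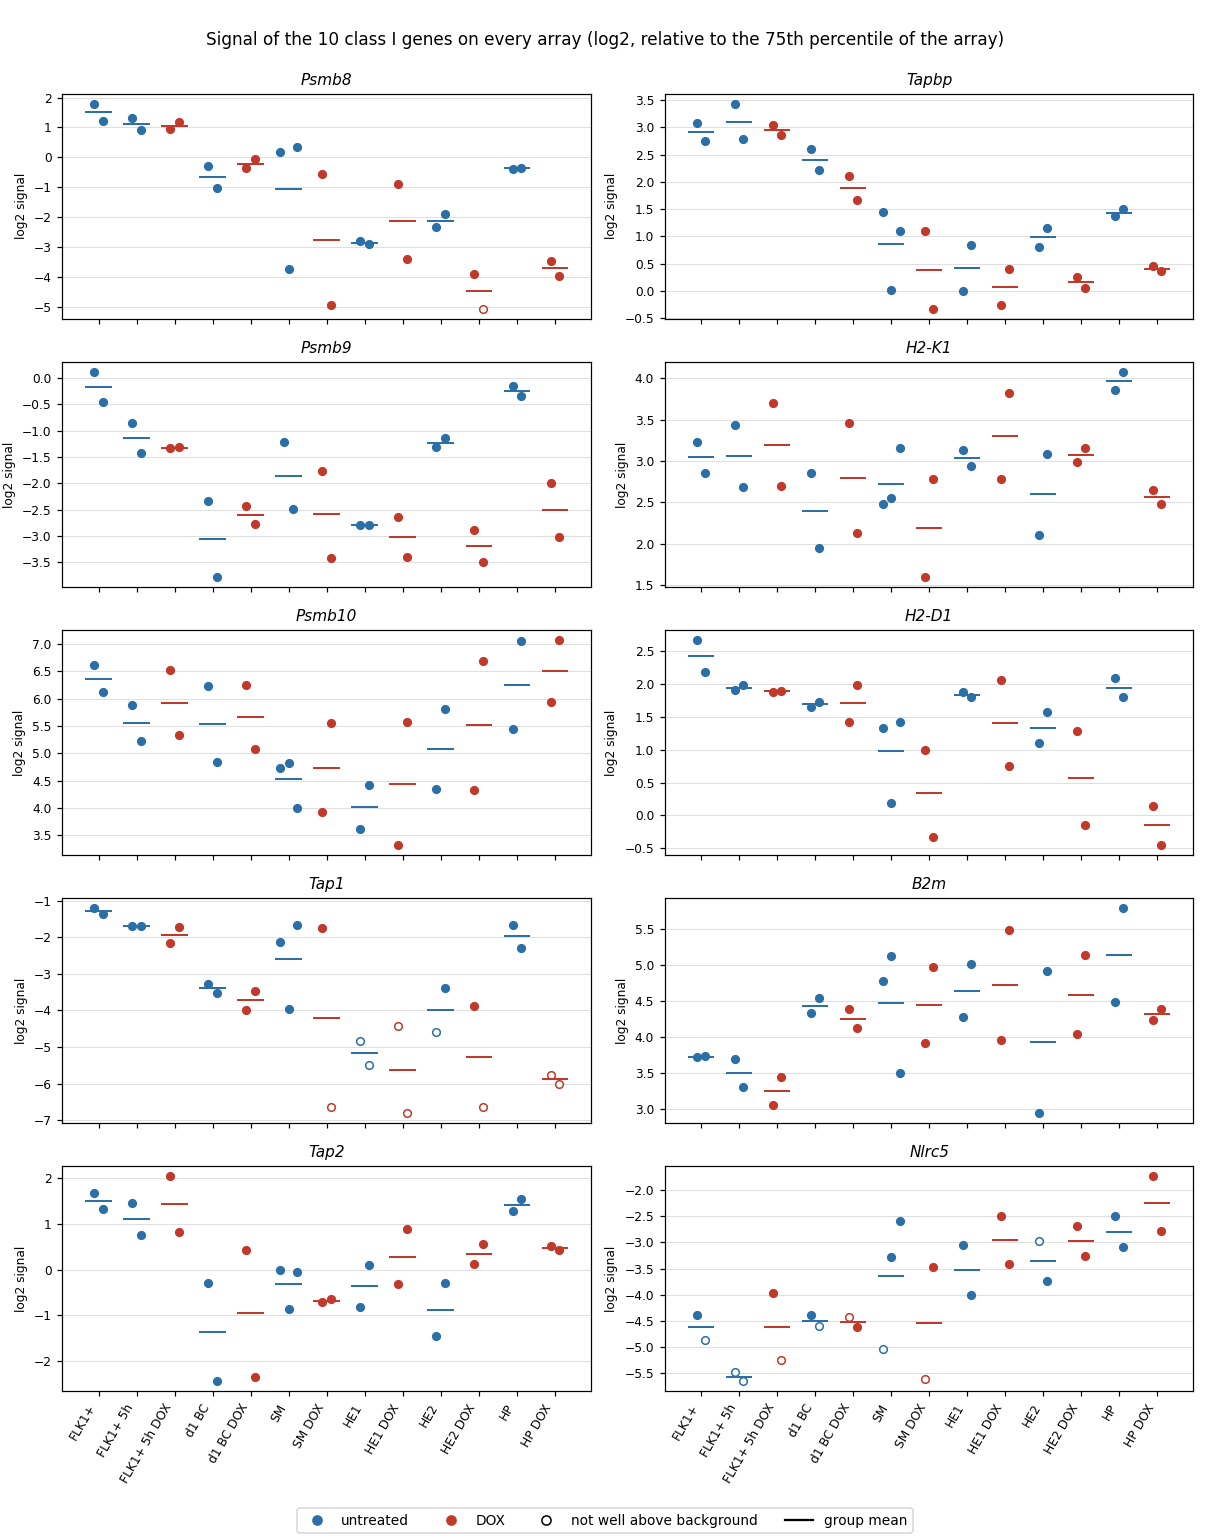
Level of each of the 10 members on every array (vertical axes, log2 signal relative to the array's 75th percentile; 13 groups on the horizontal axes), untreated in blue and DOX in red, with a bar at each group mean and open points where the probe was not well above background. Psmb8, Psmb9, Tap1 and H2-D1 lie lower on both HP DOX arrays than on both HP arrays, whereas Psmb10 overlaps.

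The comparison of DOX-treated with untreated cells asked which genes depended on AP-1 at each stage. A gene was called when limma gave an adjusted p (Benjamini-Hochberg, over all genes tested) under 0.05 and the change was at least 2-fold. HP cells showed the largest median difference of the 6 populations. In HP, 8 of the 10 members were lower on both DOX arrays than on both untreated arrays, against 11.8% of the 25124 genes tested that were lower on every array. No member was called in HP (0 of 10 with limma, against 0.0398% of all genes), and 5 members were lower at an unadjusted p under 0.05, against 2.4% of all genes. Tap1 is among these 5, though neither of its DOX arrays was well above background. The median over the 10 members was -1.21 on the log2 scale and that over all genes tested was 0.29.

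Psmb8 was at -0.38 and -0.35 in untreated HP cells and at -3.48 and -3.97 with DOX, a log2 difference of -3.36 (SE 1.21, limma adjusted p = 0.917), or -1.94 with normexp background correction. Its DOX signals were low, at 23.3 and 22.1, where the lowest above background were 13.6 and 9.95. Psmb9 was at -0.16 and -0.35 without DOX and at -1.99 and -3.03 with it, a difference of -2.25 (SE 0.62, adjusted p = 0.416), or -1.48 with normexp. Psmb10 was at 5.45 and 7.06 without DOX and at 5.94 and 7.07 with it, a difference of 0.25 (SE 0.90, 95% interval -1.65 to 2.15). Of the inducible subunits, Psmb8 and Psmb9 were thus lower on both DOX arrays while those of Psmb10 overlapped the untreated ones, and the sign of its small difference turned with median scaling (-0.10) and in the authors' values (-0.02).

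Tap1 was at -1.67 and -2.28 in HP and not well above background with DOX (-5.76 and -6.01), at least 6.55-fold lower (limma adjusted p = 0.537). Its fitted difference was -3.91 (SE 1.17) and fell in size to -1.01 with normexp background correction and to -1.97 in the authors' processed values. Tap2 stood at 1.29 and 1.53 without DOX and at 0.52 and 0.42 with it (difference -0.94, SE 0.79). Tapbp stood at 1.37 and 1.50 without DOX and at 0.45 and 0.37 with it (difference -1.02, SE 0.53). Both were lower on each DOX array, and neither passed an unadjusted p of 0.05.

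H2-D1 was at 2.09 and 1.80 in HP and at 0.14 and -0.45 with DOX, a difference of -2.09 (SE 0.58, limma adjusted p = 0.416). It was the only member called when slide was a random block, at an adjusted p of 0.0406, a fit that called 0.366% of all genes. H2-K1 was at 3.86 and 4.08 without DOX and at 2.65 and 2.47 with it, a difference of -1.41 (SE 0.58, adjusted p = 0.982). Its second probe differed the same way, from 1.85 and 1.42 to -0.51 and -0.72, a difference of -2.25 in a fit of every probe (adjusted p = 0.748). B2m, the partner of both chains, stood at 4.49 and 5.79 without DOX and at 4.24 and 4.40 with it, a difference of -0.82 (SE 0.70).

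The 2 probes of Nlrc5 disagreed in HP. The kept probe was at -2.50 and -3.09 without DOX and at -1.74 and -2.77 with it, overlapping, with a difference of 0.54 (SE 0.75). The second was at -3.51 and -3.19 without DOX and was not well above background with it (-5.94 and -5.89), at least 2.52-fold lower. Over the sorted populations this second probe was above background on 4 of 9 untreated arrays and on 0 of 8 DOX arrays. No direction can be given for the gene.

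Untreated and DOX arrays of the same replicate number in HP shared a slide, and the difference was seen on each. On the slide of replicate 2 the median over the members was -1.50, with 8 of 10 lower, and on that of replicate 1 it was -1.07, with 8 of 10 lower. Psmb8 differed by -3.61 and -3.10 on these slides, Psmb9 by -2.67 and -1.83, and H2-D1 by -2.25 and -1.94. Over the other scalings and the authors' values the median lay between -1.56 and -1.01, and leaving out single arrays moved it between -1.49 and -1.13.

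**Figure D3:**
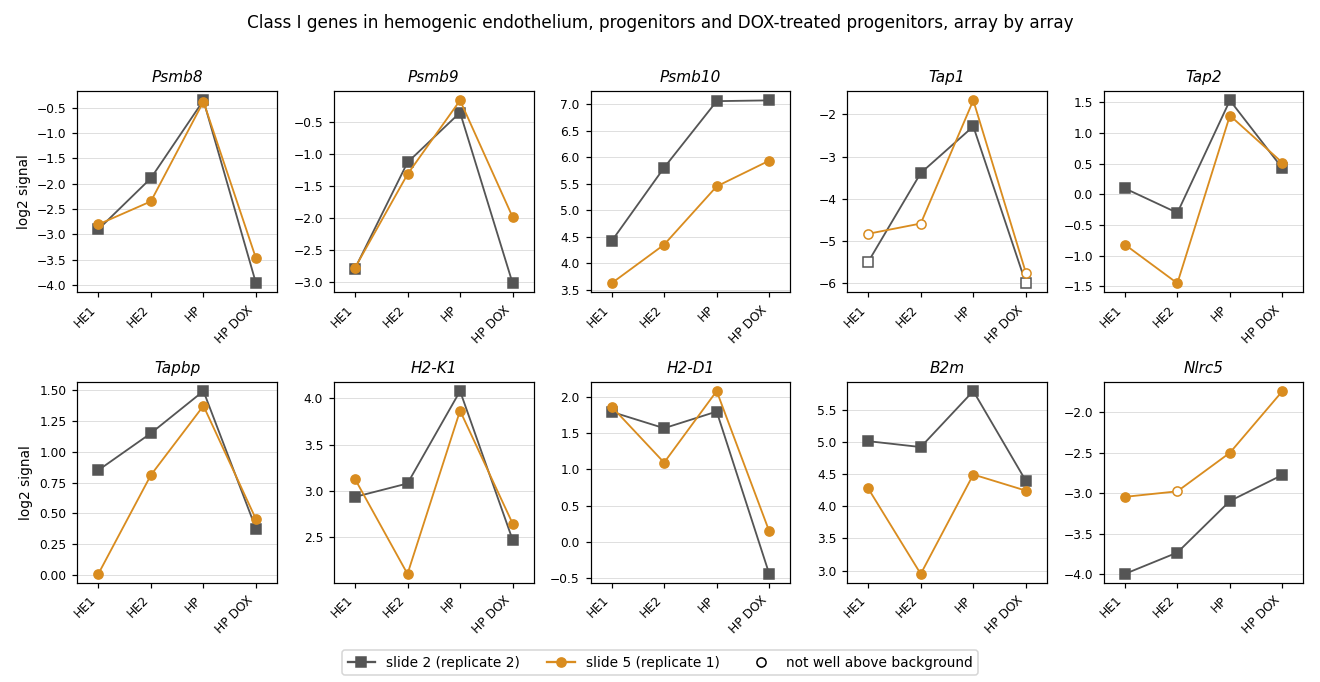
Level of each member (log2 signal relative to the array's 75th percentile) in HE1, HE2, HP and HP DOX, with lines that join arrays of the same slide. Both slides show Psmb8, Psmb9, Tap1, Tap2, Tapbp, H2-K1, H2-D1 and B2m lower in HP DOX than in HP, and Psmb9 and Tap1 higher in HP than in HE1.

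Some myeloid markers had lower values beside these members in HP. All 8 myeloid markers were above background on all 4 arrays, 4 of them were lower after DOX when p was left unadjusted (under 0.05), and their median difference was -1.52. Cd14, a co-receptor for bacterial lipopolysaccharide, had a mean of 1.39 without DOX and differed by -3.39 with it (limma adjusted p = 0.241). Fcgr3, an Fc receptor, differed by -3.30 and Lyz2, lysozyme, by -2.51. The summed level of the myeloid list, as a linear sum relative to the 75th percentile, was 130 to 141 in HP and 108 to 147 in HP DOX, overlapping. Ptprc, which encodes CD45, was lower by 3.17 on the log2 scale (-0.47 to -3.63, adjusted p = 0.255). The summed level of the 5 hematopoietic markers, to which it belongs, was not lower, at 62.8 to 70.1 in HP and 69.6 to 92.8 in HP DOX, overlapping. The erythroid list had a median of 0.98, with summed levels of 144 to 244 in HP and 211 to 246 in HP DOX. The summed level of the 5 endothelial markers was 26.8 and 42.5 in HP and 53.5 and 63.5 in HP DOX, without overlap, with a median difference of 0.16 and 0 of 5 at an unadjusted p under 0.05 in limma. The part of these cell types in the members' differences was not tested.

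In HE2 no member was called (0 of 9 tested with limma, against 0.00415% of all genes) and 1 was lower at an unadjusted p under 0.05, against 4.23% of all genes. This was Psmb9, at -1.32 and -1.13 without DOX and at -2.88 and -3.49 with it (difference -1.96, SE 0.62, adjusted p = 0.523). Psmb8 stood at -2.35 and -1.89 without DOX and at -3.91 and -5.07 with it (difference -2.37). Its second DOX array was not well above background. H2-D1, at 1.10 and 1.57 against 1.28 and -0.14, overlapped. Tap2, by contrast, was higher on both DOX arrays, at 0.12 and 0.55 against -1.45 and -0.30 (difference 1.21, SE 0.79, adjusted p = 0.539). The arrays of B2m (difference 0.65) and of the kept probe of H2-K1 (0.48) overlapped, and the second probe of H2-K1 had the other sign (-0.93). The median of the members was -0.19, against 0.11 for all genes. It was -0.51 on the slide of replicate 2, with 5 of 10 lower, and 0.24 on that of replicate 1, with 6 of 10 higher. Without the first HE2 array, the one with the lowest 75th percentile, it was -0.66.

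SM cells had a median of -0.59 over the members, against 0.08 for all genes, and 9 of 10 members were lower, but 0 were called (0.021% of all genes) or passed an unadjusted p of 0.05 in limma. Psmb8 stood at 0.17, -3.73 and 0.34 without DOX and at -0.57 and -4.94 with it, so that the second arrays of both groups, which share a slide, lay far below the others. Tap1 was low on the same arrays, with -2.12, -3.96 and -1.67 without DOX and -1.75 and -6.64 with it, the last not well above background. Within the slide of the first arrays the median was -0.64, with 9 of 10 members lower, and within that of the second arrays it was -0.27, with 7 of 10 lower. Psmb8 differed by -0.73 and -1.21 on these slides. Leaving out 1 array of the second pair, which sets arrays of different slides against each other, gave a median of -0.80 without the untreated array and -0.19 without the DOX array, and a difference of Psmb8 of -3.01 and 0.51. Markers stood apart on the second arrays too: the summed level of the 5 endothelial markers was 63.6 and 65.2 on the second SM and SM DOX arrays against 9.06 to 13.3 on the others, and that of the 7 erythroid markers was 65.7 and 53.3 against 172 to 471. The part of these cell types in the members' values was not tested.

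In HE1 no member was called (0 of 9 tested, and 0% of all genes), 0 passed an unadjusted p of 0.05 in limma, and the median was 0.18 against 0.09 for all genes. Psmb8 was at -2.81 and -2.90 without DOX and at -0.90 and -3.40 with it, and Psmb9 at -2.78 and -2.80 against -2.64 and -3.41, both overlapping. Tap1 was not well above background on any HE1 array and was not tested there. After 5 h the median was -0.06, against 0.01 for all genes, and 0 of 9 members were called (0.00421% of all genes). After 1 day it was 0.07, against 0.13, and 0 of 9 were called (0% of all genes). None passed an unadjusted p of 0.05 in limma in either complete culture. The kept probe of Nlrc5 was not tested in the complete cultures or in SM, and its second probe, not well above background on the DOX arrays at 5 h, was not called there (limma adjusted p = 0.958).

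Over the 4 sorted populations together, the mean DOX effect was -1.67 for Psmb8 (SE 0.59, limma adjusted p = 0.290), -1.30 for Psmb9 (SE 0.31, adjusted p = 0.0849), -0.98 for H2-D1 (adjusted p = 0.173) and -0.67 for Tapbp (adjusted p = 0.319). Tap1 was lower too (adjusted p = 0.225), but was not well above background on any HE1, HE1 DOX or HP DOX array, so that its fitted effect, -0.61 to -2.42 over the alternatives, is no measured size. With Tap1 counted despite this limit, these 5 members were lower at an unadjusted p under 0.05, against 5.65% of all genes. Of the members, 0 of 10 were called, against 0.42% of all genes. The median of the members was -0.48 and that of all genes 0.07. Tap2 (0.13), B2m (-0.03) and Psmb10 (0.33) had intervals on both sides of 0, as did the kept probes of Nlrc5 (0.14) and H2-K1 (-0.30). The second probe of H2-K1 differed by -1.22 (SE 0.35, unadjusted p = 0.00279, adjusted p = 0.196 in limma). That of Nlrc5 was lower as well (unadjusted p = 0.000365, adjusted p = 0.0759), with no DOX array well above background.

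The mean effect changed its call with the blocks. The replicate number as a block gives all arrays of a number a shared shift and does not pair arrays by slide. With it Psmb9 fell at an adjusted p of 0.0221, in a fit that called 0.416% of all genes. With slide as a fixed block Psmb9 (adjusted p = 0.0131) and Psmb8 (0.0466) fell, in a fit that called 1.65% of all genes, and with slide as a random block both were called again (0.00749 and 0.0472), among 2.07% of all genes. Both slide blocks gave Tap1 an adjusted p under 0.05 too, which is not counted as a fall because its effect has no measured size. Without the first SM DOX array, Psmb9 was called (-1.50, adjusted p = 0.0294), among 0.753% of all genes. Without the second, which stood apart, 0 were called, with Psmb9 at -1.09 (adjusted p = 0.212) and Psmb8 at -1.13 (0.666).

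The DOX effect itself was compared between the sorted populations in 6 pairs, with 0 members and 0% of all genes called. The effect in HE1 minus that in HP was 4.06 for Psmb8 and 2.01 for Psmb9, both at an unadjusted p under 0.05, as were 0.818% of all genes in that direction. The effect in HE2 minus that in HP was 1.88 for H2-K1 at that level, against 0.774% of all genes. The lowest adjusted p of a member in these pairs was 0.897. The larger differences in HP were therefore not shown to differ from those of the other populations.

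**Figure D4:**
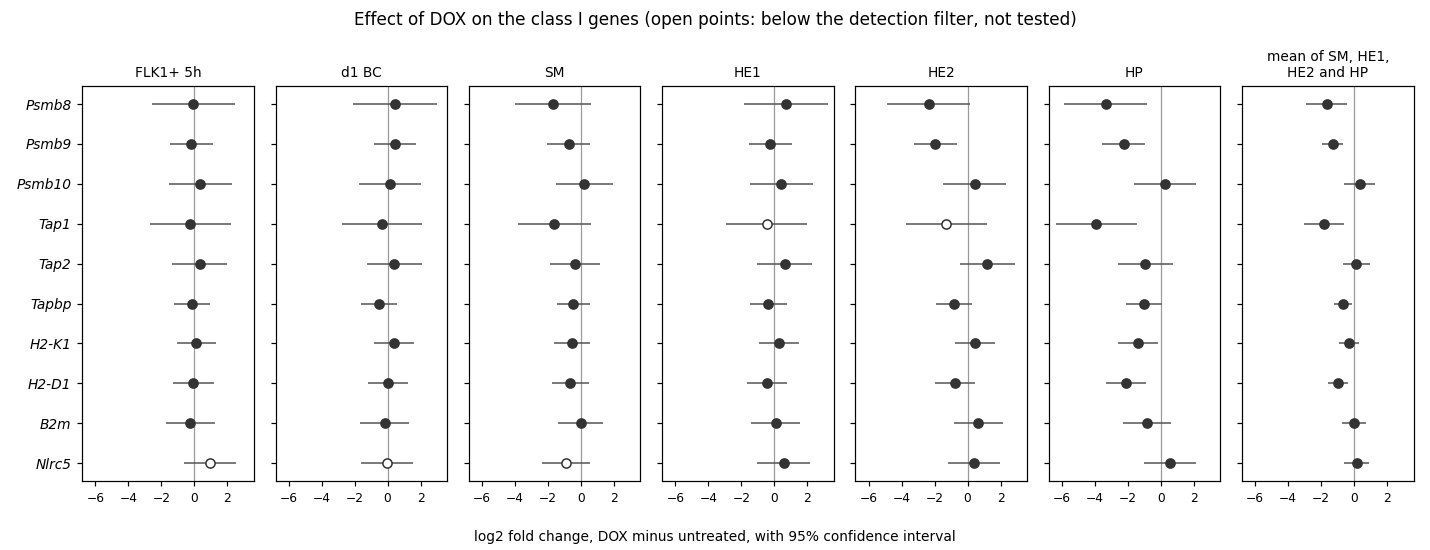
Difference of DOX-treated from untreated cells for each member (horizontal axis, log2 fold change with its 95% interval from limma) in 6 populations and as the mean of the 4 sorted ones; open points mark members that were not tested. The points of HP lie below 0 for 8 members, with intervals clear of 0 for Tap1, Psmb8, Psmb9, H2-D1 and H2-K1; the value of Tap1 is fitted to DOX arrays not well above background.

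The steps between untreated populations asked how expression changed as cells became smooth muscle or blood. From FLK1+ cells to 5 h, 0 of 9 members tested were called in limma (3.19% of all genes), and 0 passed an unadjusted p of 0.05. The median was -0.40, against -0.20 for all genes, and 6 members were lower on every array, against 34% of all genes. The means of H2-K1 and Tapbp were higher at 5 h. On the slide that held both groups, with only 1 array at 5 h, all 10 members were lower, with a median of -0.51. The share of all genes lower there was not computed. From 5 h to d1 BC, 0 were called (1.73% of all genes) and 2 were lower at an unadjusted p under 0.05 (5.3% of all genes). Tap2 was at 1.44 and 0.76 at 5 h and at -0.28 and -2.43 in d1 BC, a difference of -2.45 (SE 0.79, limma adjusted p = 0.165). Psmb9 differed by -1.92 (SE 0.62, adjusted p = 0.166). With slide as a random block, which called 3.26% of all genes, Tap2 (-2.86, adjusted p = 0.0164) and Psmb9 (-2.01, adjusted p = 0.0472) were called. With the replicate block, which called 1.91% of all genes, Psmb9 was called at an adjusted p of 0.0480.

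From d1 BC to HE1, Tapbp fell from 2.60 and 2.21 to 0.01 and 0.85, a difference of -1.98 (SE 0.53, limma adjusted p = 0.0433). It was the only member called of 10, against 3.66% of all genes. The groups share no slide, and the call was lost when any of the 4 arrays was left out (adjusted p 0.0900 to 0.206) and with slide as a fixed block (-0.68, adjusted p = 0.619). From d1 BC to SM, 0 were called (0.273% of all genes) and Tapbp alone was lower at an unadjusted p under 0.05 (-1.55, adjusted p = 0.291), against 1.41% of all genes in that direction. SM arrays were then set against HE1, where 0 were called (0.786% of all genes) and Tap1 alone was higher in SM at an unadjusted p under 0.05, at least 2.55-fold (adjusted p = 0.392), against 5.33% of all genes.

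Along the hematopoietic series the means of the members were higher in HP than in HE1 or HE2. From HE1 to HE2, 0 were called (2.73% of all genes), and Psmb9 alone was higher at an unadjusted p under 0.05 (difference 1.56, SE 0.62, limma adjusted p = 0.299), against 3.05% of all genes. From HE2 to HP all 10 members had a higher mean, 7 of them on every array, against 15% of all genes that were higher on every array. The median was 1.19, against 0.04 for all genes, and was 0.93 and 1.35 on the slides of replicates 2 and 1, with 10 of 10 higher on each. Leaving out single arrays moved it between 0.88 and 1.88. None was called (0.00395% of all genes) and 2 were higher at an unadjusted p under 0.05, against 2.92%: Tap2 by 2.28 (adjusted p = 0.584) and H2-K1 by 1.37 (adjusted p = 0.737).

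From HE1 to HP all 10 members again had a higher mean, 7 of them on every array, against 26% of all genes. The median was 1.39, against 0.01, with 1.29 and 1.60 on the slides of replicates 2 and 1. Psmb9 rose by 2.53 (SE 0.62, limma adjusted p = 0.0216) and was the only member called, against 4.74% of all genes. Its HE1 signals, 20.4 and 20.9, were not far above background. Its call was lost when any of the 4 arrays was left out (adjusted p 0.100 to 0.173) and with normexp background correction (1.21, adjusted p = 0.179). The members higher at an unadjusted p under 0.05 were 4, against 6.64% of all genes, with Tap1 at least 3.89-fold higher (adjusted p = 0.158), Psmb10 higher by 2.23 (adjusted p = 0.226) and Tap2 by 1.77 (adjusted p = 0.299). All 4 were called with slide as a fixed block, a fit that called 11.5% of all genes. Tap1 is among them, though neither HE1 array was well above background for it. The fitted difference of Tap1, 3.19, was 0.27 with normexp background correction. The mean of H2-D1 differed by 0.11 and that of Nlrc5 by 0.72, and their signs turned with quantile normalization for H2-D1 (-0.10) and with normexp for Nlrc5 (-0.30). The steps into HP share the untreated HP arrays with the DOX contrast in HP.

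Markers of other cells differed over this step too. Of the 8 myeloid markers, Cd14, Mpo and Tyrobp rose (log2 differences 4.77, 6.08 and 6.55), as did Fcgr3, at least 17.1-fold; in HE1, Cd14 was above background on 1 of 2 arrays and Fcgr3 on 0. The list had a median difference of 4.08 and summed levels of 45.5 to 65.6 in HE1 against 130 to 141 in HP. The summed levels of the hematopoietic markers (13.5 to 15.1 in HE1 and 62.8 to 70.1 in HP) and of the erythroid markers (40.0 to 40.7 and 144 to 244) were also higher in HP without overlap. Those of the endothelial markers (68.2 to 149 and 26.8 to 42.5) and of the fibroblast feeder markers (41.0 to 76.8 and 4.59 to 10.3) were lower without overlap. The part of these cell types in the members' differences was not tested.

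**Figure D5:**
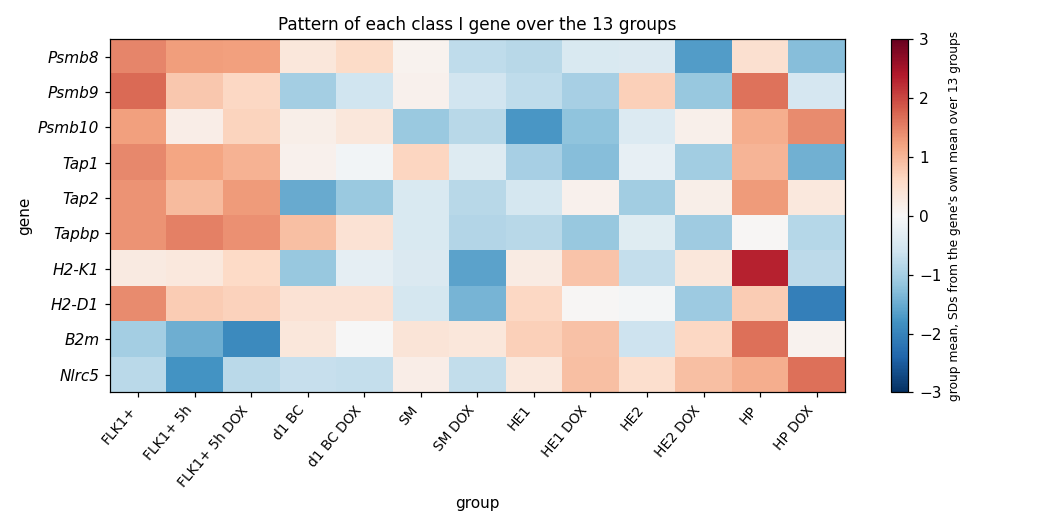
Standardised group means of the 10 members over the 13 groups (colour scale in SD units over the groups of each gene; rows are members and columns are groups). FLK1+ cells hold the highest value of 5 members and HP of 2 (B2m and the kept probe of H2-K1), and B2m and the kept probe of Nlrc5 lie below their own mean in FLK1+ cells.

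Over the 13 group means, which share arrays, slides and scaling, the most alike members were Tapbp and Psmb8 (Pearson r 0.917), Tap1 and Psmb8 (0.901), Tap1 and Tapbp (0.838) and Tap1 and Psmb9 (0.809), where Tap1 was at background in some groups. With the mean standardised profile of all 10, Psmb9 had r 0.845 and Tap1 0.782, whereas B2m had -0.213. Of the Nlrc5 probes, the kept one had -0.175 and the second one 0.477. Of 15408 other genes with a symbol, those most like the mean profile were Fkbp1b (r 0.876), Ltb (0.869), Tmem63a (0.862), Zfp296 (0.851), H2-K2 (0.850), Ucp3 (0.849), Trp53rka (0.844) and Mark2 (0.841), by Pearson's r over 13 group means. Fkbp1b was also the most alike over the 7 untreated groups and over the 27 arrays, whereas Mark2 ranked 533 and 343 there.

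Other genes of the pathway were taken as lists. Of 17 other class I and class I-like heavy chain genes, 15 were matched, and in HP with DOX 0 of 11 tested were called and 5 were lower at an unadjusted p under 0.05, against 0.0398% and 2.4% of all genes, with a median of -1.16 over the list and 0.29 over all genes. H2-Q6 had means of 0.36 without DOX and -2.12 with it (difference -2.48, limma adjusted p = 0.663), H2-T10 differed by -2.31 (adjusted p = 0.982), and H2-Q10, not well above background with DOX, was at least 4.86-fold lower (adjusted p = 0.982). Some of these genes may be alike enough in sequence to each other or to H2-K1 and H2-D1 for a probe to bind several of them. Signals of heavy chain genes, those of H2-K1 and H2-D1 included, are therefore uncertain as those of single genes. Probe sequences were not compared. In the mean over sorted populations 6 of 13 lay lower and 1 lay higher at unadjusted p values under 0.05, against 5.65% and 7.19% of all genes, with a median of -0.85 over the list and 0.07 over all genes. From d1 BC to HE1, H2-Q1 fell at least 4.99-fold (adjusted p = 0.0375), being not well above background in HE1.

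The core proteasome degrades proteins in all cells. Its 14 core genes had a median of 0.36 in HP with DOX, close to the 0.29 of all genes, with 10 above and 4 below 0 whatever their p. None was called, 0 were higher at an unadjusted p under 0.05 in limma and 1 was lower (Psmb2, -1.17), against 2.4% of all genes. The 4 proteasome activator genes had a median of 0.29 and the 5 peptide loading partners one of -0.17, with 0 called and 0 at an unadjusted p under 0.05 in limma. Among loading partners, Tapbpl, the tapasin-related protein, fell from 5 h to d1 BC (-2.50, adjusted p = 0.0172) and in HP differed by -1.02 with DOX.

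Of 14 transcription factors of class I promoters, 0 were called in HP with DOX and 0 had an unadjusted p under 0.05 in limma, with a median of -0.45; the largest difference was that of Nfya, a CCAAT-binding subunit (-1.29). Of 8 interferon receptor, kinase and ligand genes tested, 1 was lower in HP with DOX at an unadjusted p under 0.05: Ifnb1, the gene of interferon beta, with a mean of -1.82 without DOX and not well above background with it, at least 7.08-fold lower (adjusted p = 0.416). Ifnb1 was not well above background in HE1 either and rose at least 4.34-fold from HE1 to HP (adjusted p = 0.0138). The 6 MHC class II genes tested, which present peptides from outside the cell, had a median of 0.69 over the list in HP with DOX, with 0 called and 0 at an unadjusted p under 0.05 in limma.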

How the data were processed

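RNA of 27 samples in 13 groups was measured on one-colour Agilent arrays. Spot signals as deposited are an intensity, background-subtracted and detrended within each array by Feature Extraction (10.7.1.1 per the labels, 10.7.3.1 per the file headers) and not scaled between arrays. Median spot signal and local background, deposited as intensity too, served in the alternative with normexp (offset 50). A further alternative took the authors' normalized log2 table, with medians of 5.98 to 6.00 per array. All 27 columns of it follow the scanner values of their own array in direction, and how it was centred is not given in the sources used here.

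The 62976 spots held 55681 probes other than controls, 26576 of them with a gene symbol through RefSeq. Outlier spots were removed, spots of a probe averaged, log2 taken and the array's 75th percentile subtracted. The probe with the highest mean was kept for each gene, and genes detected (well above background) on every array of either group compared were tested. Group means were fitted to 28335 genes with limma 3.58.1 in R 4.3.3 (14 residual and 4.23 prior degrees of freedom), with Benjamini-Hochberg adjustment over all genes tested. A bound sets the brighter mean against the lowest signal above background. The fit was also run on simulated data with 200 altered genes and independent noise, without the slide effects of the real arrays. Its outcome is not reported here and is not used to read the counts of calls. Other software was Python 3.11.15 with numpy 2.4.6, pandas 2.3.3 and matplotlib 3.10.9 (figures), and the R package data.table, version 1.17.8. No array was a copy of another (0 identical pairs), and 0 spots were saturated. The number of arrays, 2 in most groups, limits the precision.

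Same-numbered untreated and DOX arrays deviated together in SM (r 0.556 and 0.427 over genes), HE1 (0.328), HE2 (0.261), HP (0.611) and d1 BC (0.547), and shared a slide; at 5 h they did not (-0.148). The numbers were therefore taken to pair the arrays of the sorted populations where values are given by slide. The main fit held no block, so its SEs, intervals and p-values ignore this pairing.

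The members and gene lists were chosen with earlier results of these data known. The text names all 10 members, the called genes of each list or at most 3 of each list with the largest difference, and the 8 genes with a range of group means of at least 1 whose pattern is most like that of the members. Cell type markers follow the rule for lists, and Acta2, Cdh5, Runx1 and Hprt were named as checks of the labels. The value of 1 further called list gene is not reported here. Alternatives were background correction, scaling, filters, probe choice, blocks, trend, array weights, samples in the fit, thresholds and leaving out each of 27 arrays.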

Additional observations from a re-analysis of the deposited data

How the results depend on the processing

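Of the 190 values of members in HP with DOX under the alternatives, 185 kept their sign, as did 185 of 190 from HE1 to HP, 190 of 190 from HE2 to HP and 303 of 320 in the mean of the sorted populations. With median scaling the member median was -0.74 for DOX at 5 h, 0.33 for DOX in HE2, 2.01 from HE1 to HP, 1.65 from HE2 to HP, -0.58 from d1 BC to HE1 and -0.29 from d1 BC to SM. In the same order, the median of all genes with that scaling was -0.67, 0.63, 0.64, 0.50, -0.68 and -0.45. In the main scaling the median of all genes was 0.01 from HE1 to HP and 0.04 from HE2 to HP. With the mean of all probes the member median was -0.79 for DOX in HE2, with normexp -0.19 from HE1 to HE2, and with quantile normalization -0.32 from d1 BC to HE1. Shares of all genes called by the same fit stand in parentheses. At an unadjusted p and a 2-fold change, the members called were 5 for DOX in HP (3.69%), 1 in HE2 (9.01%), 3 in the mean (4.57%), 2 for the difference of HE1 from HP (1.52%), 1 for that of HE2 from HP (4.45%), 2 from 5 h to d1 BC (11.1%), 1 from HE1 to HE2 (9.59%), 4 from HE1 to HP (14.1%), 2 from HE2 to HP (6.35%), 1 from HE1 to SM (8.66%) and 1 from d1 BC to SM (6.01%). With slide as a random block they were 1 in HP (0.366%), 3 in the mean (2.07%), 2 from 5 h to d1 BC (3.26%) and 4 from HE1 to HP (12.3%), and with slide as a fixed block 3, 1 and 4 in the last 3 of these (1.65%, 0.967% and 11.5%). With the replicate block 1 was called in the mean (0.416%) and 1 from 5 h to d1 BC (1.91%), and no other call changed. The calls in the mean include Tap1, whose effect has no measured size, except with the replicate block. Tap1, not well above background in HP DOX or HE1, is also among the 5 for DOX in HP, the 4 from HE1 to HP and the 1 from HE1 to SM. Array quality weights called 1 from 5 h to d1 BC (3.9%), 2 from HE1 to HP (7.61%) and 1 from HE1 to SM (4.23%). From HE1 to HP the authors' processed values called 2 (6.67%), a fit of only the groups compared 3 (4.38%) and normexp 0. The call of Tapbp from d1 BC to HE1 was lost (0 called) with median scaling, no filter, detection in both groups, either slide block, only the groups compared and every probe on its own. Leaving out 1 array at a time gave medians of -0.66 to 0.022 for DOX in HE2 and 0.88 to 1.88 from HE2 to HP, and 0 to 2 calls in the mean, 0 to 0 from HE1 to HP and 0 to 0 from d1 BC to HE1. The causes were not tested. At 5 h, where replicate numbers ran against each other, pairing as numbered and crossed, the latter chosen after seeing the data, called 2 and 2 of 23780 genes. Tap1 and Nlrc5 were above background on 18 of 27 arrays, which limits their values. Psmb8 and Psmb9 had low signals in HE1, which limits the sizes of their differences from it.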
